A study of Homo sapiens with 24 samples.

Results

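A-431 is a human cell line from an epidermoid carcinoma, a tumour of squamous epithelium, and U-251MG is a human cell line from a glioblastoma, a malignant tumour of the brain's glial lineage. Poly(A)-selected RNA of whole cells (total RNA) was sequenced from each, and all 4 A-431 libraries (numbered 9 to 12) were set against all 4 U-251MG libraries (numbered 5 to 8), which makes 8 of the 24 libraries of the series. The labels give no treatment, time point or genetic change for either line. The comparison covers every gene with enough reads to test: 16855 of the 51715 genes in the count tables. The 4 total RNA libraries of U-2 OS, an osteosarcoma line, were used only to give the level of a gene in another line, and the 8 cytoplasmic libraries of A-431 and U-251MG, from RNA extracted without nuclei, allowed the same comparison in another RNA fraction. Each line is 1 source of cells. By the study's methods the libraries of a line came from separate biological replicates of its culture, so a p-value here reflects how cultures of 1 source vary, and not how tumours of either kind vary.

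Squamous epithelial cells are held together by desmosomes, adherens junctions and tight junctions, carry a keratin cytoskeleton and sit on a laminin-rich basement membrane. TP63 and the grainyhead and OVOL factors drive this state, and the ZEB and SNAI factors repress it by binding E-box sequences in epithelial promoters. Glioblastoma cells carry vimentin, nestin and, in part, glial fibrillary acidic protein as intermediate filaments, use N-cadherin in place of E-cadherin, and lay down a matrix of tenascin, versican and fibronectin. The EGF receptor is a growth signal in both tumour types, and A-431 is a standard line for its study because of its very large amount of this receptor.

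Gene counts summed to between 24130875 and 32345513 per A-431 library and between 19918911 and 30835231 per U-251MG library. Levels are given as CPM, counts scaled to the library total on a common scale, means stand with their SD over 4 libraries, and a log2 ratio is A-431 over U-251MG. A gene was called at an adjusted p under 0.001 in edgeR's quasi-likelihood F-test, with Benjamini-Hochberg adjustment over the 16855 genes. Log2 CPM values correlated at 0.992 to 0.998 between libraries of the same line and at 0.798 to 0.803 between libraries of the 2 lines, as a description across genes. The balance of GC-rich over GC-poor genes differed most between A-431 library 10 (0.33 on the log2 scale) and U-251MG library 8 (-0.42), and the other 6 libraries lay between -0.14 and 0.13. In bulk RNA, fewer cells with a transcript and less of it per cell cannot be told apart.

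Between these 2 lines the markers of each tissue went with the labels. All 12 epidermoid markers tested were higher in A-431, against 29.8% of all genes tested, and all 10 glioblastoma markers tested were lower, against 29.0%. Many of them had enough reads to test only through the line where they are high, such as KRT5 (3 counts in U-251MG) and SOX2 (5 counts in A-431). Being tested largely fixed the direction of such a marker, so these counts describe the markers and do not test the labels. The 13 epidermoid markers summed to 18438 to 20981 CPM in the A-431 libraries and to 235 to 328 CPM in the U-251MG libraries, and most of both sums was EGFR. Keratin 14, the usual partner of keratin 5, was too low to test, with 11 counts in A-431 and 4 in U-251MG. The 12 glioblastoma markers summed to 768 to 807 CPM in A-431 and to 8610.3 to 9678 CPM in U-251MG. CD44, a hyaluronan receptor, gave most of the A-431 sum, and GFAP, NES, SOX2, FABP7, S100B, CDH2, PTPRZ1 and NCAM1 each stayed under 1 CPM there. OLIG2, an oligodendrocyte lineage factor, had no count in either line, and CHI3L1, a glycoprotein of mesenchymal glioblastoma, had 0 counts in A-431 and 1 in U-251MG. Several of these markers were also high in U-2 OS, with 1860 CPM for VIM, 171 for NES, 171 for CDH2 and 127 for NCAM1. GFAP, FABP7, S100B and PTPRZ1 stayed under 1 CPM there. Among epidermoid markers U-2 OS had 453 CPM of KRT17 and 170 CPM of SFN, but 1.54 CPM of CDH1 and 0.392 CPM of TP63. Markers of leukocytes, liver and melanocytes summed to at most 3.72 CPM in any library of either line. Osteoblast markers summed to 19.3 to 28.4 CPM in A-431 and to 132 to 152 CPM in U-251MG, from RUNX2 in A-431 and from SPP1 and RUNX2 in U-251MG. Fibroblast markers summed to 4.90 to 7.36 CPM in A-431 and to 474.5 to 663.6 CPM in U-251MG, where most of the sum was COL1A2, and endothelial markers to 1.29 to 2.47 CPM in A-431 and to 5.39 to 15.4 CPM in U-251MG, where KDR led.

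**Figure D1:**
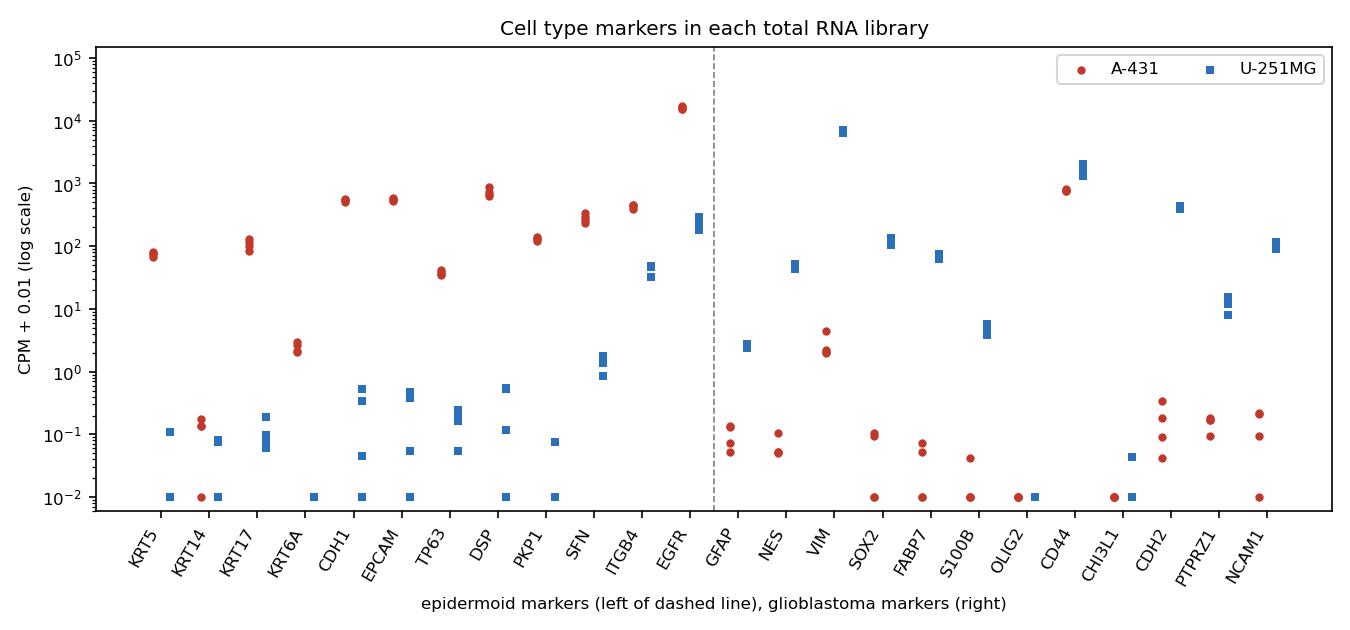
Level of each epidermoid marker (left of the dashed line) and each glioblastoma marker (right) reported here, in the 4 A-431 libraries (red circles) and the 4 U-251MG libraries (blue squares), in CPM on a log axis, with a small constant added so that 0 can be drawn. EGFR reaches 17243 CPM in A-431, VIM reaches 7119 CPM in U-251MG, and in U-251MG the epithelial genes CDH1, EPCAM, TP63 and DSP lie under 1 CPM in every library.

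Low counts of genes that are high in the other line were looked at by sequencing lane. A-431 libraries 11 and 12 shared lanes 5 and 6 with U-251MG libraries 5 and 6, while the other 4 libraries shared theirs with U-2 OS. The 23 genes with at least 200 CPM in A-431 and a log2 ratio of at least 8 summed to 16.25 and 10.28 CPM in U-251MG libraries 5 and 6, against 2.762 and 2.69 CPM in U-251MG libraries 7 and 8. These sums were 0.107%, 0.0675%, 0.0181% and 0.0177% of the A-431 level, and 12 and 7 of the 23 genes were at 0 in libraries 7 and 8. In the other direction, the 26 genes with at least 200 CPM in U-251MG and a log2 ratio of at most -8 gave mixed sums. They summed to 11.08 and 19.04 CPM in A-431 libraries 11 and 12, against 13.51 and 12.68 CPM in A-431 libraries 9 and 10. Libraries 9 and 10 shared lanes with U-2 OS, where some of these genes are high, such as VIM with 1860 CPM. The 7 of these genes that were under 5 CPM in U-2 OS were higher in both libraries that shared a lane with U-251MG. They summed to 1.089 and 1.841 CPM in A-431 libraries 11 and 12, against 0.925 and 0.0426 CPM in A-431 libraries 9 and 10. The part of shared lanes in these counts was not tested. With only the 4 libraries that shared no lane with the other line, KRT13 had a log2 ratio of 13.62 in place of 11.37. CDH1 had 14.44 in place of 11.30 and MAL2 16.38 in place of 11.64, each with at most 0.0354 CPM in U-251MG libraries 7 and 8. COL1A2 had -16.74 in place of -12.97. It had no count in A-431 libraries 9 and 10, so the small count that edgeR adds sets the size of that estimate. EGFR had 6.09 in place of 6.08 and LDHA 6.33 in place of 6.31. The largest ratios below therefore have no firm size, and for these genes the level in the higher line is the better description.

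Most genes tested differed: 5015 genes (29.8%) were higher in A-431 and 4881 (29.0%) were lower. At least 2-fold differences were found for 2884 genes (17.1%) higher in A-431 and 2524 (15%) lower, and at least 16-fold differences for 1120 (6.64%) higher and 1044 (6.19%) lower. The remaining 6959 genes were not called. The libraries of the lines did not overlap for 69.3% of genes tested, and the median log2 ratio over all genes was -0.0041. Of the tested genes, 250 had no count in any U-251MG library and 254 had none in any A-431 library. For such genes a lower bound of the fold is given, set against a floor of 3 counts over the 4 libraries, and with 1 to 3 counts the ratio is given with its 95% interval, which covers counting error only.

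**Figure D2:**
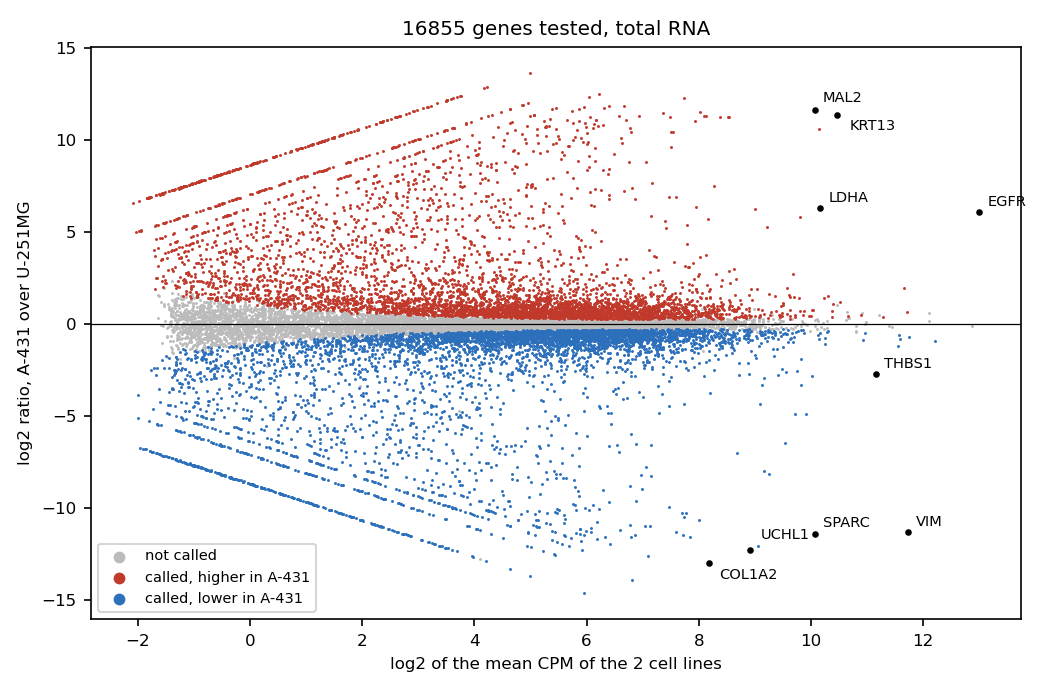
The log2 ratio of A-431 over U-251MG for each of the 16855 genes tested, against the log2 of the mean CPM of the lines, with called genes in red (higher in A-431), blue (lower in A-431) and uncalled genes in grey. The straight lines of points at the left are genes with no or very few counts in a line, and EGFR stands alone at the right, at a log2 ratio of 6.08.

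In absolute level, the largest difference between the lines was EGFR, the receptor for EGF and TGF-alpha. EGFR (chr7:55086710-55279321 on GRCh37, plus strand) had 16451, 15647, 15150.0 and 17243 CPM in A-431 libraries 9 to 12, against 231, 244, 184 and 289 CPM in U-251MG libraries 5 to 8. The groups lay far apart, with a log2 ratio of 6.08 (SE 0.128, edgeR adjusted p = 2.03e-17), and U-2 OS had 37.1 CPM. Among protein-coding genes, keratin 13, a keratin of stratified mucosa, followed with 2810.0 ± 155 CPM in A-431 and 1.09 ± 1.08 CPM in U-251MG, and keratin 8, a keratin of simple epithelia, with 2252 ± 156 CPM in A-431 and 1.51 ± 1.33 CPM in U-251MG. MAL2, a protein of apical transport in epithelial cells, had 2112, 2072, 2267 and 2113 CPM in A-431 and 1.79, 1.0, 0 and 0.0354 CPM in U-251MG. F3, the tissue factor that starts blood coagulation, averaged 1751 ± 96.9 CPM in A-431 and 30.7 ± 6.98 CPM in U-251MG (log2 ratio 5.83, SE 0.145, edgeR adjusted p = 3.29e-14). TUBB, a beta-tubulin, differed by far less as a ratio (0.68) but ranked among the largest in level, at 4156 CPM in A-431 and 2584 CPM in U-251MG. The mitochondrial ribosomal RNA gene MT-RNR2 averaged 5122 ± 1771 CPM in A-431 and 1326 ± 284 CPM in U-251MG (log2 ratio 1.94), with A-431 library 11 well above the other libraries of its line, and its call was lost without any of 6 of the 8 libraries (edgeR adjusted p up to 0.00307).

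On the side of U-251MG, the largest difference was vimentin, the intermediate filament of mesenchymal and glial cells. VIM had 2.17, 2.0, 2.05 and 4.48 CPM in A-431, against 6330.2, 7119, 6716 and 6890.0 CPM in U-251MG, and the groups lay far apart (log2 ratio -11.32, SE 0.252, edgeR adjusted p = 1.44e-11). THBS1, the matrix protein thrombospondin-1, averaged 599.7 ± 49.1 CPM in A-431 and 3974 ± 475 CPM in U-251MG (log2 ratio -2.73, SE 0.0907, edgeR adjusted p = 1.89e-15). SPARC, a collagen-binding secreted protein, averaged 0.809 ± 0.243 CPM in A-431 and 2149.6 ± 108 CPM in U-251MG. The other large differences described were moderate ratios of very abundant transcripts: ACTG1 (cytoplasmic gamma-actin, -0.90), PKM (pyruvate kinase, -1.20), GAPDH (the glycolytic enzyme, -0.71) and HSP90AA1 (a chaperone, -0.79) were all lower in A-431. GAPDH and ACTG1 are often used as constant references, and both were called lower here.

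Genes of at least 50 CPM in the higher line were then ranked by ratio, and the 12 at each end are described. TMPRSS4, a membrane serine protease, had 63.7, 65.1, 61.7 and 64.6 CPM in A-431 and no count in U-251MG, which makes it at least 2136-fold higher in A-431. GRHL2, a grainyhead transcription factor of epithelial junction genes, had 155, 153, 137 and 152 CPM in A-431 and 2 counts in all in U-251MG (a ratio of 7455, interval 2064 to 61558). Also in this set were the desmosome protein PKP1 (a ratio of 6616, interval 1832 to 54630.0), the skin proteases KLK5 (log2 ratio 12.29) and KLK10 (a ratio of 5857, interval 1051 to 231320.0), the ion transport regulator FXYD3 (a ratio of 6258, interval 1123 to 247190.0) and the channel-activating protease PRSS8 (a ratio of 5689.7, interval 1021 to 224730.0). TMEM30B, a subunit of lipid flippases, had 169 CPM in A-431 and 0.0335 CPM in U-251MG, and GDA, a guanine deaminase, 204 CPM in A-431 and 0.0552 CPM in U-251MG. FAM83H, a keratin-organising protein, had 124 CPM in A-431 and 0.030 CPM in U-251MG, and PROSER2 87.8 CPM in A-431 and 0.0238 CPM in U-251MG. The remaining gene of these 12 is not reported.

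At the other end, IL13RA2, a decoy receptor for interleukin-13 that is well known from glioblastoma, had 0, 0, 0 and 0.0418 CPM in A-431, against 205, 223, 229.9 and 243 CPM in U-251MG (a ratio of 23482, U-251MG over A-431, interval 4215 to 927490.0). PRRX1, a homeobox factor of mesenchyme, had no count in A-431 and 62, 67.7, 49.7 and 76.1 CPM in U-251MG (at least 2203-fold lower in A-431). COL1A2, the second chain of type I collagen, had 0, 0, 0.064 and 0.209 CPM in A-431 and 564, 648, 637 and 464 CPM in U-251MG. EPHA3 and EPHA5, ephrin receptors, averaged 0.0386 and 0.0101 CPM in A-431 and 272 and 85.8 CPM in U-251MG. UCHL1, a deubiquitinating enzyme of neurons, averaged 0.187 CPM in A-431 and 968 CPM in U-251MG, and was at 0.524 CPM in U-2 OS. CD70, a TNF family ligand, had 0.0101 CPM in A-431 and 86.1 CPM in U-251MG (a ratio of 8991, U-251MG over A-431, interval 1614 to 355120.0), and MME, the peptidase neprilysin, 0.0211 CPM in A-431 and 121 CPM in U-251MG (a ratio of 6316, U-251MG over A-431, interval 1748 to 52155). FOXN3 (a forkhead repressor, a ratio of 7741, U-251MG over A-431, interval 1389 to 305750.0), PLCB1 (a phospholipase C, a ratio of 6632, U-251MG over A-431, interval 1190.3 to 261950.0) and the proteoglycan VCAN (log2 ratio -12.08) were also in this set. The remaining gene of these 12 is left out.

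Keratins and the cornified envelope, the insoluble protein shell of squamous cells, were higher in A-431 in 16 of 18 members tested and lower in none, with a median log2 ratio of 8.52 (7.27 with members of 0 to 3 counts in a line set at their bound or ratio), against -0.0041 over all genes. Keratin 5, the basal squamous keratin, had 75.1, 80.3, 68.3 and 77 CPM in A-431 and 0, 0.10, 0 and 0 CPM in U-251MG. Keratin 17 had 102, 131, 83.9 and 117 CPM in A-431 and 0.0513, 0.067, 0.0877 and 0.177 CPM in U-251MG, but it was higher still in U-2 OS, at 453 CPM. The envelope proteins PPL and EVPL (periplakin and envoplakin) averaged 114 and 77.1 CPM in A-431 and under 0.1 CPM in U-251MG. Late differentiation genes were low even in A-431, with 1.06 CPM for involucrin (IVL, at least 35.6-fold higher), 1.34 CPM for cornifelin (CNFN) and 2.45 CPM for keratin 6A, and transglutaminase 1 (TGM1), which crosslinks the envelope, was not called (0.543 CPM in A-431 and 0.534 CPM in U-251MG). SFN, the 14-3-3 protein of stratified epithelium, averaged 285 ± 44.2 CPM in A-431 and 1.39 ± 0.405 CPM in U-251MG, KRT15 179 ± 12.3 CPM in A-431 and 15.3 ± 1.72 CPM in U-251MG, and KRT80 425 ± 33.1 CPM in A-431 and 214 ± 19.3 CPM in U-251MG. KRT14, KRT6B, KRT6C, KRT1, KRT4, KRT75, SPRR1A, SPRR1B, SPRR2A, SPRR2D, SPRR3 and TGM3 were too low to test.

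A-431 carried keratins of simple epithelium beside the squamous ones. KRT8 and its partner KRT18 averaged 2252 and 1166 CPM in A-431, against 1.51 and 29.6 CPM in U-251MG, with log2 ratios of 10.62 and 5.29. In the 4 A-431 libraries KRT8 had 2260.4, 2409, 2037 and 2299.7 CPM, and in the U-251MG libraries 3.33, 1.64, 0.482 and 0.566 CPM, where the highest values were those of libraries 5 and 6. KRT7 (log2 ratio 3.76) and KRT19 (a ratio of 124, interval 42.3 to 599) were also higher, at 26.3 and 3.76 CPM in A-431, while KRT23 was lower (-3.42) at under 1 CPM in both lines.

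Cell junction genes, listed together with some other epithelial genes such as CDS1, RAB25 and SPINT1, were higher nearly throughout. Of 36 tested on this list 35 were higher in A-431, and the median log2 ratio was 8.09 (8.24 with low members at their bound or ratio). E-cadherin (CDH1), the adhesion receptor of adherens junctions, had 541, 549, 512 and 569 CPM in A-431 and 0.513, 0.335, 0 and 0.0354 CPM in U-251MG. Desmoplakin (DSP), which ties desmosomes to keratin, had 742, 689, 624 and 883 CPM in A-431 and 0.513, 0.536, 0 and 0.106 CPM in U-251MG, and EPCAM, an epithelial adhesion molecule, 534, 542, 595 and 559.8 CPM in A-431 and 0.461, 0.368, 0.0438 and 0 CPM in U-251MG. The desmosomal cadherins DSC2, DSC3 and DSG3, the tight junction proteins CLDN4 and CLDN7 and the matriptase ST14 with its inhibitors SPINT1 and SPINT2 were all far higher, with a log2 ratio of 6.92 for CLDN4, 11.53 for SPINT2 and a ratio of 443, interval 79.6 to 17517 for DSG3. CRB3, a protein of apical polarity, had 12.6 CPM in A-431 and no count in U-251MG or U-2 OS (at least 421-fold higher). Some members kept a clear level in U-251MG: DSG2 averaged 549 ± 16.4 CPM in A-431 and 128 ± 18.5 CPM in U-251MG, and PKP2, a plakophilin that is not confined to epithelium, 139 ± 4.6 CPM in A-431 and 38.4 ± 2.87 CPM in U-251MG. The exception was connexin 26 (GJB2), lower in A-431 with 17.4 ± 1.22 CPM against 57.8 ± 7.51 CPM in U-251MG (log2 ratio -1.73, SE 0.0962, edgeR adjusted p = 5.44e-12).

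The promoters of the genes on this list, called junction genes here, often held the E-box letters that ZEB and SNAI factors bind. RefSeq promoter sequences on GRCh38.p14, from 250 bases before to 50 after a gene start, were searched for CACCTG and its reverse complement CAGGTG, and these are the only letters searched, on both strands. Of all 35116 windows searched, 7231 (20.6%) held a match, and among the 29 windows found for junction genes 14 (48.3%) did. By gene, 13 of 23 junction genes with a sequence had a match (56.5%), against 6571 of 27305 genes (24.1%). Of the 21 called higher in A-431, 12 had one (57.1%). These 21 are nearly all of the 23, so whether a match goes with the difference between the lines cannot be told. The list was chosen with earlier results of these data known. A match is a description of letters, not of binding. The comparison set was every promoter searched, whether or not its gene was tested, and it was not matched for GC content. Of the 37 listed genes only 23 had a sequence. The 30 bases around a match are shown, to let the positions be read, for 6 of these 12 genes, picked with their values known, and for GJB2, the gene with a match that was lower in A-431; capitals mark the E-box.
DSP, chr6:7541481-7541510, plus strand: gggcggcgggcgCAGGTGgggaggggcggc
CDS1, chr4:84583088-84583117, plus strand: cgtggagacgcgCACCTGgcaaccggaggc
OCLN, chr5:69492502-69492531, plus strand: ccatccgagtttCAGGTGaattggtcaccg
CRB3, chr19:6464112-6464141, plus strand: ggggtcccgttaCAGGTGcgcccacagcgc
SPINT1, chr15:40844439-40844468, plus strand: tcccgggctgatCAGGTGtgtctcctcctc
NECTIN4, chr1:161089579-161089608, minus strand: cccccagagacgCACCTGttctgacctgct
GJB2, chr13:20192926-20192955, minus strand: cacggcgggagaCAGGTGttgcggccccgc

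Of these genes, DSP had 735 CPM in A-431 and 0.289 CPM in U-251MG, CDS1, a lipid synthesis enzyme, 94.3 CPM in A-431 and 16.9 CPM in U-251MG, and occludin (OCLN), a tight junction protein, 60.4 CPM in A-431 and 11.7 CPM in U-251MG. SPINT1, CRB3 and NECTIN4 averaged 116, 12.6 and 22.5 CPM in A-431 and at most 0.36 CPM in U-251MG.

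The hemidesmosome, which anchors basal cells to the basement membrane, did not move as a unit. Of 10 members tested 6 were higher in A-431 and 3 lower, with a median log2 ratio of 0.46. The alpha chain of laminin-332, LAMA3, was far higher in A-431 (229.8 CPM in A-431 and 1.97 CPM in U-251MG), but the beta chain LAMB3 differed little (165 CPM in A-431 and 115 CPM in U-251MG, log2 ratio 0.51). COL17A1 and ITGB4, the transmembrane collagen and the integrin of the hemidesmosome, were higher (4.0 and 3.31), whereas PLEC (plectin) and DST (dystonin), which link it to filaments, were lower (-1.47 and -0.89). Type VII collagen (COL7A1), the anchoring fibril below it, had 0.241, 0.298, 0.352 and 0.293 CPM in A-431, against 128, 124, 113 and 70.7 CPM in U-251MG (log2 ratio -8.49), and the groups did not overlap.

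Transcription and splicing factors of epithelium followed the junctions, with 19 of 21 tested higher in A-431 and a median log2 ratio of 7.84 (7.59 with low members at their bound or ratio). TP63, the master regulator of stratified epithelium, had 39.4, 35.5, 41.5 and 34.4 CPM in A-431 and 0.154, 0.234, 0.0438 and 0.177 CPM in U-251MG. ESRP1, the splicing regulator of epithelial exons, had 375, 345, 376 and 363 CPM in A-431 and 0.461, 0.10, 0.526 and 0.0354 CPM in U-251MG, and ESRP2 averaged 64.4 CPM in A-431 and 0.314 CPM in U-251MG. ELF3, EHF, OVOL1 and TRIM29 averaged 93.3, 166, 28.8 and 99.9 CPM in A-431, and under 1 CPM each in U-251MG. The AP-2 factors were the contrast within the group, with TFAP2A close between the lines (92.8 CPM in A-431 and 68.8 CPM in U-251MG, log2 ratio 0.43) and TFAP2C not called (20.1 CPM in A-431 and 17.5 CPM in U-251MG). PRDM1, a repressor of terminal differentiation programmes, was the member lower in A-431 (-2.61).

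Mesenchymal genes and the factors of epithelial-mesenchymal transition (EMT) moved the other way: 24 of 28 tested were lower in A-431 and 1 was higher, with a median log2 ratio of -3.55. ZEB1 had 2.53, 1.57, 2.63 and 1.42 CPM in A-431 and 76.2, 73.9, 73 and 98.3 CPM in U-251MG, where library 8 lay above the other 3, and its log2 ratio was -5.28 (SE 0.166, edgeR adjusted p = 1.09e-13). ZEB2 had 0.603, 0.128, 0.32 and 0.418 CPM in A-431 and 33.5, 39.8, 36 and 52.1 CPM in U-251MG (log2 ratio -6.77). U-2 OS was like U-251MG in ZEB1 (78.9 CPM) but like A-431 in ZEB2 (0.988 CPM). SNAI1, the factor named Snail, ran against its group at a low level, with 1.05, 0.808, 0.704 and 1.17 CPM in A-431 and 0.0513, 0.0335, 0 and 0.106 CPM in U-251MG (log2 ratio 4.08), and SNAI2 (Slug) was only slightly lower (15.6 CPM in A-431 and 26.5 CPM in U-251MG). N-cadherin (CDH2) mirrored E-cadherin, with 0.0804, 0.17, 0.032 and 0.335 CPM in A-431 and 399, 427, 415 and 434 CPM in U-251MG. Fibronectin (FN1) had 53.7, 50, 44 and 55.1 CPM in A-431 and 1039, 1131, 1089.9 and 892 CPM in U-251MG (log2 ratio -4.36). THY1, a surface protein of fibroblasts and neurons, CDH11, a mesenchymal cadherin, and TCF4, a basic helix-loop-helix factor, averaged 0.0396, 0.0496 and 0.494 CPM in A-431 and 145, 160.3 and 94.4 CPM in U-251MG. AXL, a receptor kinase often listed with EMT, was high in both lines (964 ± 49.5 CPM in A-431 and 1315 ± 148 CPM in U-251MG, log2 ratio -0.45, edgeR adjusted p = 4.26e-05), and its call was lost under 4 alternatives.

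**Figure D3:**
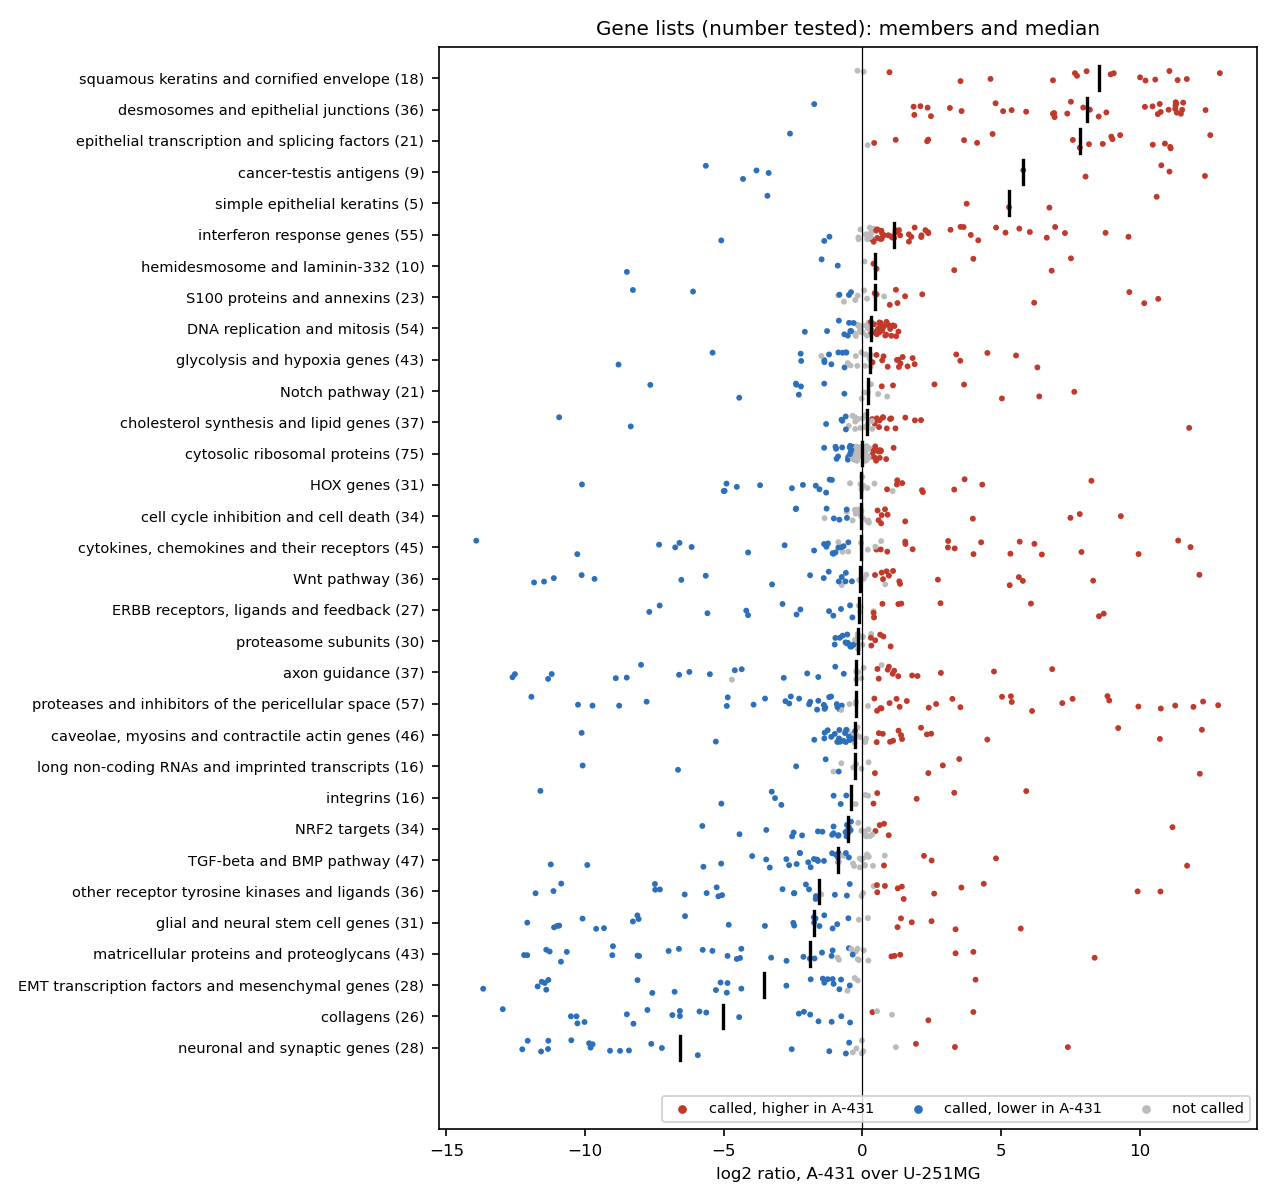
Log2 ratio of A-431 over U-251MG for the tested members of 32 gene lists, with called members in red (higher in A-431) or blue (lower in A-431), uncalled members in grey, and the list's median as a black bar; the number tested stands beside each name. The lists of squamous keratins, junctions and epithelial factors lie to the right with medians of 8.52, 8.09 and 7.84, and the EMT, collagen and neuronal lists to the left with -3.55, -5.03 and -6.58.

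For 9 of the 33 lists the share of members higher in A-431 lay between 30.6% and 33.3%, near the 29.8% of all genes tested: axon guidance, ERBB, other receptor kinases, Notch, integrins, HOX, cell cycle inhibition, actin filaments and non-coding RNAs. Their count of higher genes is therefore not particular to them. The share lower in A-431 was near the 29.0% of all genes for hemidesmosome (30%), glycolysis (30.2%), ribosomal protein (26.7%) and non-coding RNA genes (31.25%). Their count of lower genes is likewise not particular to them. The counts of every list are to be read against 29.8% of all genes higher and 29.0% lower.

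Genes of glia and neural stem cells were mostly lower in A-431, at 23 of 31 tested, while 6 were higher, and the median log2 ratio was -1.75. SOX2, the stem cell factor, had 0, 0, 0.0961 and 0.0837 CPM in A-431 and 133, 114, 104 and 119 CPM in U-251MG, and NES, the filament of neural progenitors, 0.0402, 0.0426, 0.0961 and 0.0418 CPM in A-431 and 52.6, 49.8, 47.7 and 43.9 CPM in U-251MG. GFAP, the astrocyte filament, was low even in U-251MG, with 0.121, 0.128, 0.064 and 0.0418 CPM in A-431 and 2.77, 2.65, 2.54 and 2.37 CPM in U-251MG (log2 ratio -4.82, SE 0.305, edgeR adjusted p = 4.14e-11). The neural factor POU3F2 averaged 0.118 CPM in A-431 and 131 CPM in U-251MG. FABP7, the brain fatty acid carrier, averaged 0.0265 CPM in A-431 and 66 CPM in U-251MG, and S100B 0.0080 CPM in A-431 and 4.51 CPM in U-251MG. SOX9 and SOX4 were present in both lines and lower in A-431 (log2 ratios -1.55 and -2.46). The 6 members higher in A-431 were NDRG2 (5.71), CSPG4 (3.36), SALL2 (2.49), NR2F2 (1.78), NFIA (1.39) and GLUL (1.27), of which GLUL encodes glutamine synthetase, an astrocyte enzyme. OLIG1, OLIG2, PROM1, AQP4, ALDH1L1 and DCX were among the 17 members too low to test.

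Neuronal and synaptic genes showed the lowest median of the lists, -6.58 (-6.69 with low members at their bound or ratio), with 19 of 28 tested lower in A-431 and 3 higher. NCAM1, a neural adhesion molecule, had 0.201, 0.0851, 0 and 0.209 CPM in A-431 and 105, 117, 116 and 91.8 CPM in U-251MG. DPYSL3 (a growth cone protein), NRCAM (an adhesion molecule), SYT11 (a synaptotagmin) and NLGN1 (a postsynaptic adhesion protein) averaged at most 0.14 CPM in A-431, for DPYSL3, and 458, 136, 111 and 62.2 CPM in U-251MG. CNTN1 (contactin) and GRIK2 (a kainate receptor subunit) had no count in A-431, where they were at least 722-fold lower and at least 243-fold lower. Against the group, ELAVL2, a neuronal RNA-binding protein, had 65.4, 61.2, 74.4 and 68 CPM in A-431 and 0.513, 0.368, 0.307 and 0.389 CPM in U-251MG (log2 ratio 7.41), and MAPT (tau, 3.34) and STMN3 (a stathmin, 1.93) were also higher in A-431. L1CAM, another neural adhesion molecule, was not called, at 157 CPM in A-431 and 158 CPM in U-251MG.

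Of 37 axon guidance genes tested 12 were higher in A-431 (32.4%, near the 29.8% of all genes) and 17 lower (45.9%, against 29.0%), with a median of -0.22. The U-251MG side held SLIT2, a secreted repellent, and its receptor ROBO1 (0.0784 and 1.71 CPM in A-431, 193 and 167 CPM in U-251MG), the netrin receptor UNC5C (a ratio of 3016, U-251MG over A-431, interval 1032 to 14627), the netrin NTN1 (-8.50) and the semaphorin receptor NRP2 (4.5 CPM in A-431 and 1137 CPM in U-251MG). EPHA3 had 0.0804, 0, 0.032 and 0.0418 CPM in A-431 and 242, 290.2, 278 and 278 CPM in U-251MG. The A-431 side held EPHA1, a receptor of epithelial cells (4.75), the ephrins EFNB1 (2.83) and EFNA1 (1.99) and the semaphorin SEMA3F (1.80). EPHA2, the main ephrin receptor of epithelia, was lower in A-431 (143 CPM in A-431 and 279 CPM in U-251MG), and EPHB4, EPHB2 and EFNB2 were not called. UNC5B, another netrin receptor, had 0.804, 0.894, 0.961 and 1.26 CPM in A-431 and 18.6, 14.9, 63 and 5.91 CPM in U-251MG, and was not called despite a log2 ratio of -4.70 (edgeR adjusted p = 0.00392).

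Of 26 collagen genes tested, which give the matrix its fibres and sheets, 21 were lower in A-431, 3 were higher, and the median log2 ratio was -5.03. COL1A2, COL6A3, COL12A1, COL5A2 and COL5A1 averaged at most 1.23 CPM in A-431, for COL5A1, and 578, 435, 428, 284 and 264 CPM in U-251MG. COL1A1, the partner chain of COL1A2, was low in both lines (5.84 CPM in A-431 and 12.5 CPM in U-251MG) and abundant only in U-2 OS (1215 CPM), where COL1A2 in turn was at 0.59 CPM. The basement membrane chains COL4A1 and COL4A2 were slightly lower in A-431 (-0.76 and -0.44). COL17A1, COL9A2 and COL4A5 were the collagens higher in A-431.

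Among glycoproteins and proteoglycans of the matrix, 28 of 43 tested were lower in A-431 and 6 were higher, with a median of -1.89. Tenascin-C (TNC), a glioma matrix protein, averaged 56.1 ± 9.57 CPM in A-431 and 1622 ± 171 CPM in U-251MG (log2 ratio -4.86), and TGFBI, a TGF-beta-induced adhesion protein, 168 ± 6.86 CPM in A-431 and 1635 ± 119.5 CPM in U-251MG. VCAN had 0.121, 0, 0.384 and 0.418 CPM in A-431 and 1068, 1097, 968 and 1116 CPM in U-251MG. CCN1 and CCN2, matricellular targets of the YAP factor, averaged 176 and 6.44 CPM in A-431 and 763 and 814 CPM in U-251MG. FBLN1 (fibulin-1, 8.38), HSPG2 (perlecan, 4.0), AGRN (agrin, 1.16), SDC4 (1.05), HAS3 (1.37) and CSPG4 ran the other way. The hyaluronan synthases differed by member: HAS2 averaged 0.277 CPM in A-431 and 77.5 CPM in U-251MG, and HAS3 11.5 CPM in A-431 and 4.38 CPM in U-251MG. Members too low to test included the small proteoglycans DCN, LUM and BGN.

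Of 16 integrins tested, the receptors for this matrix, 5 were higher in A-431, a share near that of all genes, and 8 were lower (50%, against 29.0%), with a median of -0.41. The epithelial subunits ITGB6 (5.91), ITGB4 (3.31) and ITGA2 (1.96) were higher in A-431. ITGA4, a leukocyte and neural crest subunit, was lower (0.0105 CPM in A-431 and 45.4 CPM in U-251MG), as were ITGA7 (-5.08), ITGA1 (-3.27), the fibronectin receptor subunit ITGA5 (-1.04) and ITGAV (-0.78). The shared beta-1 subunit ITGB1 (1151 CPM in A-431 and 990.3 CPM in U-251MG) and ITGA3 (584 CPM in A-431 and 688 CPM in U-251MG) were not called.

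Proteases and their inhibitors exchanged family members, with 26 of 57 tested higher in A-431 and 26 lower, and a median of -0.24. The kallikreins, serine proteases of the skin surface, were found in A-431: KLK6 had 636, 735, 597 and 677 CPM there and 0.615, 0.402, 0 and 0.0708 CPM in U-251MG, KLK5 averaged 424 CPM in A-431 and 0.0759 CPM in U-251MG, and KLK8 had 35.8 CPM and no count in U-251MG. The epithelial serpin SERPINB5 averaged 147 CPM in A-431 and 0.0745 CPM in U-251MG, and the cathepsins CTSH and CTSV were higher in A-431 (5.04 and 3.54). The plasminogen system was lower in A-431: PLAU (urokinase) averaged 216 ± 11.8 CPM in A-431 and 1287 ± 237 CPM in U-251MG, PLAUR, its receptor, 22.7 ± 2.02 CPM in A-431 and 67.7 ± 10.5 CPM in U-251MG, and PLAT 6.38 ± 0.479 CPM in A-431 and 72.3 ± 9.45 CPM in U-251MG. SERPINE2, a thrombin inhibitor made by glia, averaged 0.0416 CPM in A-431 and 169.8 CPM in U-251MG. The metalloproteases MMP2 (-4.85), MMP14 (-1.36), MMP16 (-8.77) and ADAM19 (-2.77) were lower in A-431.

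Of 27 genes of the ERBB family and its feedback 9 were higher in A-431 (33.3%, near the 29.8% of all genes) and 13 lower (48.1%, against 29.0%), with a median of -0.13. Of the 4 receptors, EGFR, ERBB2 and ERBB3 were higher in A-431. ERBB3, a receptor without a strong kinase of its own, had 134, 131, 123 and 138 CPM in A-431 and 0.513, 0.368, 0.175 and 0.354 CPM in U-251MG (log2 ratio 8.53), and ERBB2 averaged 93.6 ± 6.99 CPM in A-431 and 35.1 ± 1.83 CPM in U-251MG. ERBB4 had no count in A-431 and 1.01 CPM in U-251MG (at least 34.7-fold lower in A-431). Ligands differed as well: epiregulin (EREG) had 17.1, 11.8, 16 and 13.3 CPM in A-431 and 0, 0, 0.0877 and 0.0354 CPM in U-251MG, and TGFA averaged 175 ± 3.43 CPM in A-431 and 106 ± 3.62 CPM in U-251MG, whereas EGF itself (1.22 CPM in A-431 and 22.1 CPM in U-251MG) and the neuregulins NRG1 (-5.59) and NRG2 were lower in A-431. HBEGF (39.9 CPM in A-431 and 30.1 CPM in U-251MG) and BTC were not called, and AREG was too low to test.

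The feedback inhibitors of the pathway were split in direction. SPRY2 (3.81 CPM in A-431 and 27.8 CPM in U-251MG) and SPRY4 (11 CPM in A-431 and 57 CPM in U-251MG), which dampen receptor signalling, were lower in A-431, as were LRIG1 (3.98 CPM in A-431 and 69 CPM in U-251MG), a protein that promotes the turnover of ERBB receptors, and DUSP6 (-1.05), a phosphatase of ERK. ERRFI1, a direct inhibitor of the EGF receptor kinase, was slightly lower (-0.36). DUSP4 (138 CPM in A-431 and 19.4 CPM in U-251MG) and DUSP5 (57 CPM in A-431 and 23 CPM in U-251MG), nuclear phosphatases of ERK, were higher. With only the libraries that shared no lane with the other line, ERRFI1 and DUSP4 lost their calls (edgeR adjusted p = 0.0122 and 0.00893). The adaptor GRB2 (179 CPM in A-431 and 186 CPM in U-251MG) was not called.

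Genes next to EGFR were also higher in A-431. Within 3 Mb of EGFR lie 19 protein-coding genes in the files, of which 11 were tested, 8 were higher and 1 was lower. Of the 210 protein-coding genes tested on the arm 7p, 35.7% were higher and 35.7% lower. The median log2 ratio was 1.73 near EGFR (1.72 without EGFR itself), against 0.01 for the arm. LANCL2, 0.35 Mb away, had 468, 520.3, 452 and 484 CPM in A-431 and 36.3, 37.9, 35 and 42.8 CPM in U-251MG (log2 ratio 3.65, SE 0.0813, edgeR adjusted p = 4.82e-18), and U-2 OS, at 39.7 CPM, was like U-251MG. VOPP1, NIPSNAP2, MRPS17, CCT6A, SUMF2 and CHCHD2 followed, with log2 ratios of 1.53 (CCT6A, a chaperonin subunit) to 2.42 (NIPSNAP2, a mitochondrial protein). MRPS17 lies inside the NIPSNAP2 locus, so that reads of the pair may not be fully told apart. On the other side of EGFR, SEC61G, a subunit of the protein translocon 0.27 Mb away, was lower in A-431 (41.1 CPM in A-431 and 51 CPM in U-251MG, log2 ratio -0.32, edgeR adjusted p = 0.000582), a call that was lost without any of 6 of the 8 libraries (adjusted p up to 0.00429). PSPH (phosphoserine phosphatase) had 208, 193, 208 and 187 CPM in A-431 and 98.6, 103, 147 and 54.4 CPM in U-251MG and was not called. DNA copy number was not measured.

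**Figure D4:**
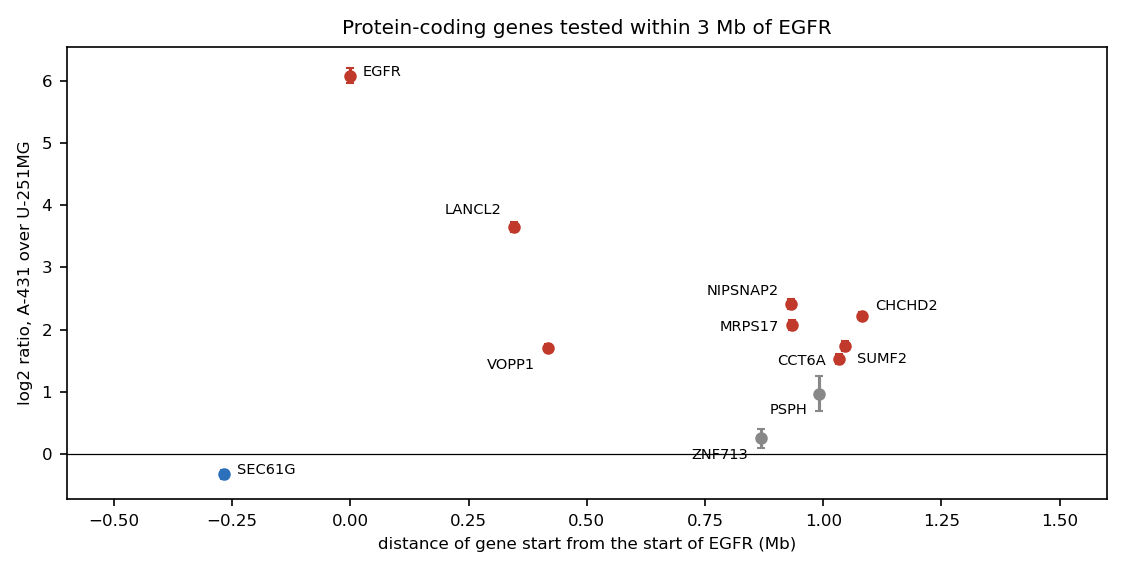
Log2 ratio of A-431 over U-251MG (SE as error bars) of the 11 protein-coding genes tested within 3 Mb of EGFR, by the distance of their start from that of EGFR in Mb, with called genes in red (higher in A-431) or blue (lower in A-431) and uncalled genes in grey. EGFR lies at 6.08 and LANCL2 at 3.65, while SEC61G on the other side lies at -0.32.

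Other receptor kinases and their ligands were mostly lower: 21 of 36 tested were lower in A-431 and 11 higher, with a median of -1.58. MST1R (the receptor RON) had 77.4 CPM in A-431 and 0.0389 CPM in U-251MG, and its relative MET, the receptor of hepatocyte growth factor, had 1146, 1153, 1107 and 1237 CPM in A-431 and 376, 415, 353 and 501 CPM in U-251MG (log2 ratio 1.49). FGFR2, the FGF receptor of epithelia, was higher (4.38), and FGFR1 and FGFR3 were lower (-1.68 and -5.25). FGFBP1, a carrier protein that releases FGFs from the matrix, averaged 122 CPM in A-431 and 0.132 CPM in U-251MG, while the growth factor FGF5 averaged 0.0314 CPM in A-431 and 119 CPM in U-251MG. PDGFRA, a receptor of glial progenitors, was low in both lines (0.0494 CPM in A-431 and 1.93 CPM in U-251MG), PDGFRB averaged 0.346 CPM in A-431 and 17.6 CPM in U-251MG, and the collagen receptor DDR2 0.437 CPM in A-431 and 80.7 CPM in U-251MG. VEGFA, the angiogenic factor, had 139.8, 132, 174 and 128 CPM in A-431 and 425, 396, 554 and 218 CPM in U-251MG and was not called (log2 ratio -1.48, edgeR adjusted p = 0.00299). In U-251MG, VEGFA, UNC5B and PSPH alike were highest in library 7 and lowest in library 8.

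The TGF-beta and BMP pathway was lower in A-431 in 26 of 47 members tested and higher in 5, with a median of -0.86. TGFB2 had 14.3, 14.1, 17.2 and 16 CPM in A-431 and 241, 232, 264 and 227 CPM in U-251MG (log2 ratio -3.97), and TGFB1 and TGFB3 were lower too (-1.95 and -3.34). The receptors TGFBR1 and TGFBR2 (-1.60 and -0.87) and the target genes SMAD7, ID2 and ID3 (-2.37, -1.65 and -1.38) were lower, whereas SMAD2, SMAD3 and SMAD4 were not called. LTBP1, which stores TGF-beta in the matrix, averaged 0.0473 CPM in A-431 and 128 CPM in U-251MG. INHBB, an activin chain, was the reverse, with 83.5 CPM in A-431 and 0.0212 CPM in U-251MG, and INHBA, the other activin chain, was lower in A-431 (-1.63).

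Wnt ligands differed between the lines by member: 14 of 36 pathway members were higher in A-431 and 16 lower, with a median of -0.09. WNT5A, a ligand of the beta-catenin-independent branch, had 0.0402, 0.0851, 0 and 0 CPM in A-431 and 92, 95, 81 and 117 CPM in U-251MG, and WNT5B averaged 0.0211 CPM in A-431 and 88.4 CPM in U-251MG. WNT7B had 63.8, 65.7, 55.9 and 58.7 CPM in A-431 and 1.54, 0.804, 1.23 and 0.956 CPM in U-251MG, and WNT7A and WNT10A averaged 22.4 and 17.6 CPM in A-431, with no count and 0.0489 CPM in U-251MG. The secreted inhibitors SFRP1 and DKK3 averaged 0.0504 and 2.51 CPM in A-431 and 118 and 232 CPM in U-251MG, and the pathway targets LEF1 and AXIN2 0.0207 and 0.102 CPM in A-431 and 26.9 and 5.08 CPM in U-251MG. DKK1 was not called (340.4 ± 10.6 CPM in A-431 and 191 ± 91.4 CPM in U-251MG).

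In the Notch pathway 7 of 21 members were higher in A-431 and 8 lower, with a median of 0.20. NOTCH3 had 66.4, 66.7, 60.6 and 66.6 CPM in A-431 and 0.461, 0.368, 0.263 and 0.212 CPM in U-251MG, while NOTCH2, the most abundant receptor, was not called (414 CPM in A-431 and 395 CPM in U-251MG). Of the ligands, JAG1 had 16.6, 14.6, 15.2 and 16.3 CPM in A-431 and 316, 386, 317 and 336 CPM in U-251MG (log2 ratio -4.44), and JAG2 averaged 38.8 CPM in A-431 and 0.466 CPM in U-251MG (6.38). The target genes HES1 and HEY1 were lower in A-431 (-1.37 and -2.29), and HES2 was higher (3.67).

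Cytokine genes were balanced in number, 19 of 45 tested in each direction, with a median of -0.05. A-431 carried the interleukin-1 genes of epidermis: IL1A and IL1B averaged 24.3 and 12.3 CPM in A-431 and 0.25 and 0.609 CPM in U-251MG, and the receptor antagonist IL1RN had 66.3, 71.4, 64.1 and 66 CPM in A-431 and 0.0513, 0.0335, 0 and 0 CPM in U-251MG. The death receptor TNFRSF10A had 17.9 CPM in A-431 and no count in U-251MG, while its relative TNFRSF10B was lower in A-431 (80.4 CPM in A-431 and 168 CPM in U-251MG). The chemokine CXCL8 (interleukin-8) was lower, with 1.13, 0.383, 0.768 and 0.963 CPM in A-431 and 71.9, 60.1, 47 and 135 CPM in U-251MG, and its call was lost with only the libraries that shared no lane. IL11 averaged 0.874 CPM in A-431 and 93.7 CPM in U-251MG, CX3CL1 had no count in A-431 and 6.05 CPM in U-251MG, and the growth factor CSF1 was lower (-2.80).

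Interferon response genes were higher in A-431 as a group, 41 of 55 tested, with 3 lower and a median of 1.15. BST2 (tetherin), which holds virus particles at the membrane, had 156, 158, 142 and 151 CPM in A-431 and 1.08, 0.904, 1.18 and 0.708 CPM in U-251MG. IFITM1, IFITM2 and IFITM3, membrane proteins that block virus entry, averaged 60, 44.2 and 191 CPM in A-431 and 0.471, 0.857 and 16.4 CPM in U-251MG. These genes are similar in sequence, and reads that fit more than 1 of them may be left uncounted. MX1 (4.82), OAS1 (6.65), IFIT2 (3.65) and IFI27 (8.77) were also higher, whereas some sensors and factors above them differed little: IFIH1 had a log2 ratio of 0.54, and IRF9 and EIF2AK2 were not called. IFI44L (-5.09), IFI44 (-1.19) and GBP1 (-1.37) were the 3 lower members.

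HOX genes, which mark position along the body axis, differed by cluster, with 10 of 31 tested higher in A-431, 13 lower and a median of -0.03. In the HOXA cluster 7 members were higher, led by HOXA9 with 103, 97.8, 106 and 91.8 CPM in A-431 and 0.205, 0.335, 0.395 and 0.319 CPM in U-251MG, and HOXA6 alone was lower. All 5 called members of the HOXD cluster were lower, led by HOXD13 (at least 186-fold lower) and HOXD10, which had 0.402, 0.723, 1.15 and 0.753 CPM in A-431 and 17.6, 18.8, 17.2 and 18.1 CPM in U-251MG. HOXC11 and HOXC13 were higher (4.33 and 1.26) and HOXC10 was lower (-5.0), although they are neighbours.

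Cancer-testis antigens, germ cell genes switched on in some tumours, differed by family member. Only 9 of the listed genes had enough reads, and 5 were higher and 4 lower in A-431. MAGEA4 had 500.4, 491, 460.0 and 492 CPM in A-431 and 0.308, 0.335, 0.175 and 0.0708 CPM in U-251MG, MAGEC1 had 25.7 CPM in A-431 and no count in U-251MG, and PAGE1 averaged 61.4 CPM in A-431 and 0.0261 CPM in U-251MG. MAGEA3, MAGEA6, MAGEA12 and CSAG1 were lower in A-431 and averaged at most 8.79 CPM in U-251MG, for MAGEA6. MAGEA3 and MAGEA6 share nearly all of their sequence, and reads that fit both may be left uncounted.

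Of 43 genes of glycolysis and the hypoxia response 18 were higher in A-431 (41.9%, against 29.8% of all genes), with a median of 0.26. Lower in A-431 were 13 (30.2%, near the 29.0% of all genes). LDHA, the muscle-type subunit of lactate dehydrogenase, had 2132, 2418, 2125 and 2353 CPM in A-431 and 26.1, 30.1, 27.7 and 29 CPM in U-251MG (log2 ratio 6.31, SE 0.0893, edgeR adjusted p = 2.41e-20), and U-2 OS had 1079.7 CPM. LDHB, the heart-type subunit, had 366, 387, 372 and 376 CPM in A-431 and 992, 953, 967 and 947 CPM in U-251MG. Per kilobase of transcript, LDHA and LDHB stood at 1007 and 244 CPM in A-431, and at 12.6 and 627 CPM in U-251MG, so that LDHB was the main subunit mRNA in U-251MG and LDHA in A-431. PGK1, ALDOA, ALDOC and the hypoxia genes CA9 and NDRG1 were higher in A-431 (1.45, 0.76, 5.54, 4.51 and 3.39). GAPDH, PKM, the glucose transporter SLC2A1 and the lactate exporter SLC16A3 were lower (-0.71, -1.20, -1.37 and -2.22), and SLC2A3 had 0.016 CPM in A-431 and 10.6 CPM in U-251MG. ENO1 and TPI1 were not called.

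Cholesterol and lipid genes were higher in A-431 in 15 of 37 members tested and lower in 7, with a median of 0.18. The synthesis enzymes SQLE and HMGCS1 had log2 ratios of 1.55 and 1.0. ABCA1, the cholesterol exporter, was far lower (0.288 CPM in A-431 and 98.7 CPM in U-251MG).

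Targets of the oxidative stress factor NRF2 were lower in A-431 in 21 of 34 members tested and higher in 5, with a median of -0.52. FTL, the light chain of the iron store ferritin, had 277, 247, 244 and 248 CPM in A-431 and 1406, 1523, 1645 and 1281 CPM in U-251MG (log2 ratio -2.53), whereas the heavy chain FTH1 was higher (708 CPM in A-431 and 409.6 CPM in U-251MG). The cystine transporter SLC7A11 (68.1 CPM in A-431 and 377 CPM in U-251MG, a call lost without any of 6 of the 8 libraries, edgeR adjusted p up to 0.00222), the aldo-keto reductases AKR1C1 and AKR1C3 and the pentose phosphate enzyme TKT (-1.04) were lower. ME1, the malic enzyme, was the opposite, with 81.2 CPM in A-431 and 0.0261 CPM in U-251MG. The factor itself (NFE2L2) and its inhibitor KEAP1 were not called.

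Ratios of housekeeping machinery were small. Of 75 cytosolic ribosomal protein genes 15 were higher in A-431, 20 were lower and 40 were not called, and the called log2 ratios lay between -1.38 (RPS28) and 1.13 (RPS29), with a median of -0.02. Proteasome subunits had 6 of 30 higher and 12 lower, all between -1.0 (PSMC5) and 1.02 (PSMA6). Ribosomal protein genes have many processed pseudogenes that can take part of their reads.

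Genes of DNA replication and mitosis were higher in A-431 in 27 of 54 members and lower in 9, with a median of 0.31. The replicative helicase subunits MCM2, MCM4, MCM5 and MCM6 and the clamp PCNA had log2 ratios of 1.11, 0.98, 1.16, 1.22 and 0.94. TYMS, which makes the thymidylate for DNA, ran against them, with 84.7, 85.9, 82.9 and 80.6 CPM in A-431 and 344, 371, 304 and 381 CPM in U-251MG, and so did the mitotic factor FOXM1 (-1.27). MKI67 was slightly higher (1150.2 CPM in A-431 and 854 CPM in U-251MG, a call lost without any of 7 of the 8 libraries, edgeR adjusted p up to 0.00439), and TOP2A, CDK1 and CCNB1 were not called.

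Of 34 genes of cell cycle inhibition and cell death 11 were higher in A-431, 7 were lower and 16 were not called. CDKN2A, the tumour suppressor locus of p16 and p14ARF, had 0.804, 0.851, 0.961 and 0.921 CPM in A-431 and no count in U-251MG (at least 29.6-fold higher), and U-2 OS had none either. Its neighbour MTAP had 136, 134, 146 and 132 CPM in A-431 and 138, 130.2, 130.2 and 167 CPM in U-251MG and was not called (log2 ratio -0.05, edgeR adjusted p = 0.571), and CDKN2B had no count in either line. Within 3 Mb of CDKN2A 14 of 34 protein-coding genes were tested, 7 were higher and 1 lower, with a median log2 ratio of 0.44 (0.17 without CDKN2A itself). On the whole arm 9p 64 of 135 were higher (47.4%), with a median of 0.31, so the count is not particular to this region. The highest ratios in the region were those of HACD4 (an enzyme of very long fatty acids, 8.38), CDKN2A and ELAVL2. CDKN2C, another CDK inhibitor, averaged 54.4 CPM in A-431 and 0.0857 CPM in U-251MG, while MDM2, CDKN1A, CDK4 and CCND1 were not called, CCND1 at 854 CPM in A-431 and 873 CPM in U-251MG. PMAIP1 (NOXA) and CDK6 were lower (-2.40 and -1.03).

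S100 and annexin genes were higher in A-431 in 11 of 23 members and lower in 5. S100A14, an epithelial S100 protein, averaged 364 CPM in A-431 and 0.517 CPM in U-251MG, and S100A11 and S100A10 were about 2-fold higher (1.21 and 1.27), whereas ANXA6 (1.84 CPM in A-431 and 127 CPM in U-251MG) and S100A6 (-0.83) were lower. Of 46 genes of caveolae, myosins and actin filaments 15 were higher in A-431 and 21 lower, and the median was -0.27. The epithelial myosins MYH14 (127 CPM in A-431 and 0.0734 CPM in U-251MG) and MYO5B (146 CPM in A-431 and 6.38 CPM in U-251MG), the light chain MYL9 (9.23) and ezrin (EZR, 1.40) were higher in A-431. The smooth muscle gamma-actin ACTG2 (0.0751 CPM in A-431 and 91.2 CPM in U-251MG) and the actin regulators FLNA, TPM1, CALD1 and CNN3 (-0.58, -1.37, -1.25 and -0.99) were lower, and beta-actin (ACTB) was not called (7262 CPM in A-431 and 7677 CPM in U-251MG).

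Of 16 long non-coding RNAs and imprinted genes 5 were higher in A-431 and 5 lower, shares of 31.25% that lie near those of all genes. H19, an imprinted RNA, had 22.7 CPM in A-431 and no count in U-251MG (at least 759-fold higher), and HOTAIRM1, a HOXA transcript, averaged 34.2 CPM in A-431 and 3.01 CPM in U-251MG. The imprinted SNRPN (0.0106 CPM in A-431 and 15.8 CPM in U-251MG) and PLAGL1 (0.55 CPM in A-431 and 56.2 CPM in U-251MG) were lower. MALAT1 and NEAT1 were not called, nor was GAS5 (93.2 CPM in A-431 and 108 CPM in U-251MG). The 7 tested markers of tissues that neither line comes from were split, 3 higher in A-431 (PMEL, ITGAM and CDH5, at most 2.16 CPM there) and 3 lower (KDR, SPP1 and RUNX2).

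Per kilobase of the longest transcript, levels of relatives within a family can be set side by side. CDH1 and CDH2 stood at 113 and 0.0384 CPM per kilobase in A-431 and at 0.0459 and 104 in U-251MG. LAMA3 and LAMA4 stood at 21.6 and 0.0422 in A-431 and at 0.185 and 21.8 in U-251MG. SERPINB5 and SERPINE2 stood at 57 and 0.00695 in A-431 and at 0.0288 and 28.3 in U-251MG, and ELF3 and ETV1, ETS factors, at 18.7 and 0.027 in A-431 and 0.0364 and 7.9 in U-251MG. In another pair, MYH10 (25.2 in A-431, 16.6 in U-251MG) differed little while MYH14 (18.4 in A-431, 0.0106 in U-251MG) was far higher in A-431. Connexins did not follow this form, since GJA1, the astrocyte connexin, stood at 0.0237 in A-431 and 72 in U-251MG, beside GJB2 at 7.52 in A-431 and 24.9 in U-251MG.

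By position, the median log2 ratio of protein-coding genes differed between chromosome arms, around a median of -0.02 over all. Arm 6q had the lowest median, -0.83, with 207 of 296 genes tested lower in A-431 (69.9%), followed by 18p (-0.74), 4p (-0.63) and 3p (-0.55). The highest were Xp (0.61), 22q (0.59, 174 of 300 higher, 58.0%), 21q (0.54) and 14q (0.40). Arm 7p, which carries EGFR, was at 0.01.

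In cytoplasmic RNA the comparison of the lines gave similar numbers. Among 17470 genes tested there, 5402 (30.9%) were higher in A-431 and 5396 (30.9%) lower. Of the 9852 genes called in total RNA and tested in both, 9846 had the same sign and 9236 were called in the same direction, which is 93.3% of the total RNA calls and 85.5% of the cytoplasmic calls. All 5364 genes that differed at least 2-fold in total RNA kept their sign. EGFR had a cytoplasmic log2 ratio of 6.12, LDHA 6.28, VIM -10.93 and CDH1 11.37. These are other libraries of the same cell lines, not of other tumours.

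**Figure D5:**
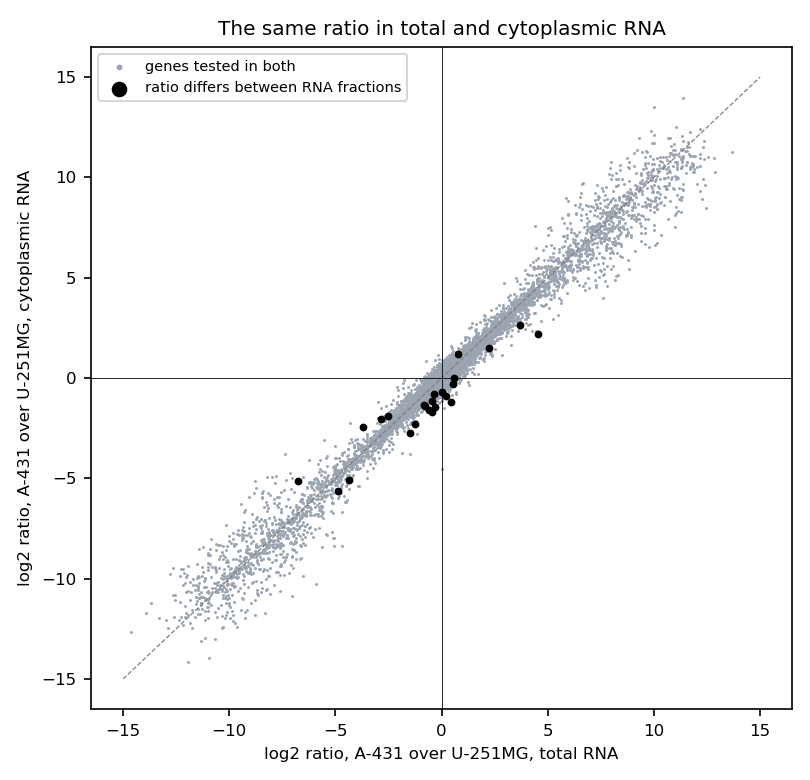
Log2 ratio of A-431 over U-251MG in cytoplasmic RNA against that in total RNA, for genes tested in both (grey) and for those whose ratio differed between the fractions in an interaction test (black); the dashed line marks equal ratios. Genes lie along the line throughout. SPTBN1 is the 1 gene called between the cell lines in both fractions with opposite signs, at 0.45 in total and -1.21 in cytoplasmic RNA.

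The ratio itself differed between the fractions for few genes. In an interaction test over 17982 genes, 19 (0.106%) had a higher ratio in total RNA and 5 (0.0278%) a lower one, at an edgeR adjusted p under 0.05. SPTBN1 (beta-spectrin) had a log2 ratio of 0.45 in total RNA and -1.21 in cytoplasmic RNA, a difference of 1.65 (SE 0.122, edgeR adjusted p = 4.38e-08). PLEC (difference 1.25), SPTAN1 (alpha-spectrin, 1.11) and IQGAP1 (a scaffold of actin, 1.12) went the same way. LPAR2 (1.04) followed with an edgeR adjusted p of 0.0491. In the other direction, ZEB2 (difference -1.68), HOXB3 (-0.65), the splicing factor SRSF5 (-0.46) and a gene without a symbol, ENSG00000247386 (-0.81), had adjusted p-values of 0.0411 to 0.0474. All A-431 cytoplasmic libraries and 2 of the 4 U-251MG ones were run on another flow cell than the total RNA libraries. With flow cell as a term, 22 of the 24 genes stayed called and all 24 kept their sign, with a difference of 1.64 for SPTBN1, while SRSF5 (edgeR adjusted p = 0.0643) and 1 gene without a symbol were not called. That fit called 46 genes with a higher and 13 with a lower ratio in total RNA, and it takes the flow cell effect from the U-251MG libraries alone. Leaving out A-431 cytoplasmic library 21, 22, 23 or 24 or U-251MG total library 6 left none of the 5 lower ratios called.

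Some abundant genes had nearly the same level in both lines. TARS1, a tRNA synthetase, had 391, 381, 409 and 390.5 CPM in A-431 and 396, 381, 439 and 347 CPM in U-251MG, FAM168B 273, 275, 279.6 and 281 CPM in A-431 and 270.1, 284, 261 and 286 CPM in U-251MG, and STAG2, a cohesin subunit on the X chromosome, averaged 326 ± 20.7 CPM in A-431 and 324 ± 20.2 CPM in U-251MG. GNA13 and MYO1C, a G protein and a myosin, averaged 203 ± 7.94 and 345 ± 24.1 CPM in A-431 and 202 ± 28.8 and 344 ± 26 CPM in U-251MG. PSAT1, an enzyme of serine synthesis, had close means, from 389, 309, 414 and 329.7 CPM in A-431 and 313, 290.3, 628 and 199.8 CPM in U-251MG. Its U-251MG values were highest in library 7 and lowest in library 8, as for PSPH, the enzyme of the next step. The other 2 genes of this set are pseudogenes and are not described, because they share reads with their parent genes.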

How the data were processed

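Poly(A)-selected RNA of 3 human cell lines was sequenced by the authors as whole-cell and cytoplasmic libraries. The authors aligned reads to hg19 (GRCh37) with TopHat 1.1.4, used SAMtools 0.1.8, and deposited counts per Ensembl gene from HTSeq 0.4.6 (intersection-strict, no strand), so that overlapping and antisense genes cannot be told apart and reads of near-identical copies are uncertain. The deposited RPKM values, computed by the authors per kilobase of exon model and library size, served as an alternative unit only. They exceed CPM per kilobase by a factor that differs between genes, so levels between genes are given as CPM per kilobase of the longest annotated transcript, a choice made after the data were seen in place of RPKM. Rows that name no gene held 25.9% to 27.2% of the reads in these 8 libraries and were left out. Counts were tested with edgeR 4.0.16 in R 4.3.3 (TMM, filterByExpr, quasi-likelihood F-test, robust, Benjamini-Hochberg), where genes at an adjusted p under 0.001 were called, and checked with DESeq2 1.42.0 and limma 3.58.1; tables were handled in Python 3.11.15 with pandas 2.3.3. The interaction used 16 libraries and an adjusted p under 0.05. Replicate pairs all differed by more than sampling noise. Tests were tried on simulated counts before use. The main test called 33 of 100 genes with a true log2 ratio of 0.5 in size and 79 of 100 with 1. It called 1 of 16567 genes with no true difference. Libraries were tied to lanes and flow cells by the read totals in the study's supplementary sequencing information.

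Symbols and positions came from a GRCh37 gene annotation and matched 37293 and 42986 of 51715 genes. The members, the 33 lists (1253 entries, 28 unmatched) and the tests were chosen with earlier results of these data known, and lists are described by counts and medians without a test. Genes were named by rule: in each direction the 12 protein-coding genes with the largest ratio among those of at least 50 CPM in the higher line, and the 8 with the largest difference in CPM; in each list up to 4 called members per direction by ratio and the 4 most abundant, and those not tested; the 8 genes of at least 200 CPM with the smallest ratio; the markers, pairs and genes within 3 Mb of EGFR and CDKN2A; and in each direction of the interaction the 6 largest of at least 10 CPM. Some genes that the rule names are not reported here. Further list members were named after their values were seen. Alternatives were RLE scaling, DESeq2, no count filter, an adjusted p under 0.05, a test against a fold of 2, thinning to the smallest library, a 12-library model, lanes as a block, a GC offset, flow cell as a term, log2(RPKM + 0.1) and log2(RPKM + 1), and each library left out.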

Additional observations from a re-analysis of the deposited data

Results flagged for a closer look

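In 8 of 128 groups of 4 libraries, over the 66 genes whose libraries were looked at singly, 1 library lay apart from the other 3, while chance alone marks about 1 group in 20. That rate does not hold for groups of very few counts, where reads in a single library are enough to mark it. IL13RA2 had 1 count, NES 6 and UCHL1 20 over the A-431 libraries, and KRT5 had 3 over the U-251MG libraries. In A-431, VIM had 4.48 CPM in library 12, against 2.0 to 2.17 CPM in the others, NES 0.0961 CPM in library 11 against 0.0402 to 0.0426 CPM, and IL13RA2 0.0418 CPM in library 12 against 0. UCHL1 was at 0 in A-431 library 10 and at 0.241 to 0.256 CPM in the others. FTL had 277 CPM in A-431 library 9 against 244 to 247.7 CPM, and NOTCH3 60.6 CPM in library 11 against 66.4 to 66.7 CPM. In U-251MG, ZEB1 had 98.3 CPM in library 8 against 72.95 to 76.2 CPM, and KRT5 0.1005 CPM in library 6 against 0.

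The log2 ratio of A-431 over U-251MG differed between total and cytoplasmic RNA by an interaction test for the genes that follow, with the difference given as total minus cytoplasmic. It was higher in total RNA for SPTBN1 (1.65), PLEC (1.25), IQGAP1 (1.12), SPTAN1 (1.11), LPAR2 (1.04), FLNA (1.01), TNC (0.77), FN1 (0.72), COL4A2 (0.70) and COL4A1 (0.60), at edgeR adjusted p-values of 4.38e-08 (SPTBN1) to 0.0491 (LPAR2). It was lower in total RNA for ZEB2 (-1.68), ENSG00000247386 (-0.81), HOXB3 (-0.65) and SRSF5 (-0.46), at edgeR adjusted p-values of 0.0411 (ENSG00000247386) to 0.0474 (ZEB2). With flow cell as a term, a fit chosen after seeing the data, each kept its sign and all but SRSF5 (edgeR adjusted p = 0.0643) stayed called.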

How the results depend on the processing

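The counts of calls differed by more than 1.5 times from 5015 higher and 4881 lower genes in 3 settings: 3146 and 2784 with only the 4 libraries that shared no lane with the other line (fewer samples), 3220 and 2697 with log2(RPKM + 0.1), and 3231 and 2686 with log2(RPKM + 1), where the cause was not tested. Leaving out 1 library gave 4666 to 5238 higher and 4451 to 5107 lower genes in total RNA, and 5067 to 5347 and 4969 to 5342 in cytoplasmic RNA. At least 2-fold calls, 2884 higher and 2524 lower, became 2098 and 1860 when a fold of 2 was itself tested. For the interaction, an adjusted p under 0.001 gave 6 and 0 genes in place of 19 and 5, flow cell as a term (chosen after seeing the data) gave 46 and 13, and leaving out 1 library gave 12 to 25 with a higher and 0 to 10 with a lower ratio in total RNA. The 12 came without A-431 cytoplasmic library 21 or 22, A-431 total library 10 or U-251MG cytoplasmic library 18, and the 10 without A-431 total library 11. No named gene reversed. Of 376 genes named, 14 lost their call without some library at an edgeR adjusted p of 0.001 to 0.00439: COL4A2, COL4A5, DST, FGF5, HOXA6, HSP90AA1, IQGAP1, KDR, MKI67, MT-RNR2, SEC61G, SLC7A11, SPTBN1 and TGFB1. The test against a fold of 2 ended 64 calls, the RPKM settings 35 each and the libraries without a shared lane 32. List medians changed sign in some setting for 5 of 33 lists, and moved by up to 1.16 without a library. Genes of small ratio were called only in part: 1528 of 2320 genes with an estimated log2 ratio of 0.4 to 0.6 in either direction were called. In simulated counts 33 of 100 genes with a true log2 ratio of 0.5 were called. There 16567 of 16767 genes had no true difference, so the adjustment was stricter than in the data. The simulated share therefore does not measure how often such genes are called in the data. The cell lines share no replicate numbers; over the 2 lanes that held both lines, with lane as a block, 4965 genes were higher and 4874 lower.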
